A study of Mus musculus with 786 samples.

Results

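Single cells of mouse bone marrow that carried Pf4 transcripts are described here, among cells sorted as haematopoietic stem cells (HSC) or as the first multipotent progenitors (MPP1). A cell counted as Pf4-positive if its well was labelled as holding 1 cell, if at least 1000 genes reached an FPKM of 1 in it, and if Pf4 reached an FPKM of 1. FPKM counts the sequenced fragments of a gene, scaled to transcript length and to the library's mapped fragments. The members were thus selected on their Pf4 value, which is given as a description only. Of 373 cells that passed the first 2 conditions, 75 were Pf4-positive and 298 were Pf4-negative.

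The cells came from C57BL6 mice of 6 to 8 weeks and were sorted by flow cytometry. HSC were gated as CD48-CD150+CD135-CD34-, and MPP1 by the same markers but CD34+. Normal mice gave 3 plates of HSC and 2 of MPP1, and bled mice gave 1 plate of either population, with 96 wells per plate. The labels do not say how or when the mice were bled, nor whether a plate held cells of 1 mouse or of several. HSC plate 3 was made with a C1 Fluidigm protocol and RNA spikes, and for it normal mice and bled mice stand in the same line on growth; Smart-seq is named for the other 6 plates. The wells of HSC plate 1 were labelled for 2 runs, and the deposited columns could belong to either. In the cells used, total FPKM had plate medians between 210791 and 286197, the wells of all 7 plates shared 84 index pairs, and no columns were identical.

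Pf4 (platelet factor 4, also called CXCL4) is a chemokine that megakaryocytes make and store in the alpha granules of platelets. Megakaryocytes arise from stem cells through progenitors that switch on Gata1, Fli1, Nfe2 and Gfi1b, transcription factors of the megakaryocyte and erythroid lineages. These in turn drive genes for the platelet's adhesion receptors (Itga2b with Itgb3, and Gp1ba, Gp1bb, Gp5 and Gp9), its granule contents (Pf4, Ppbp, Vwf, Selp) and its signalling (Plek, P2rx1, Lat). A part of the mouse stem cell pool is known to carry such transcripts before any commitment is visible at the surface, and Pf4 regulatory sequence is widely used to drive Cre in the megakaryocyte lineage.

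Pf4 lies beside Ppbp, the gene of another platelet chemokine, and both are read from the plus strand of chromosome 5, with annotated starts 3.9 kb apart. The 250 bases before each start are shown because Pf4 defines the cells and Ppbp is its neighbour, whose values follow below; both sequences are RefSeq's for GRCm38.p6, whereas the expression files were made on mm9. Capitals mark ACTTCC, the reading of the ETS-type core GGAAGT on the other strand.
Pf4, chr5:90772185-90772434, plus strand: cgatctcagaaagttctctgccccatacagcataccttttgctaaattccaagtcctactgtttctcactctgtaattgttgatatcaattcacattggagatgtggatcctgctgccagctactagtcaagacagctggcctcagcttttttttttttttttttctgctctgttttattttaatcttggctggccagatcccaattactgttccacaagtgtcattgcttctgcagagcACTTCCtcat
Ppbp, chr5:90768268-90768517, plus strand: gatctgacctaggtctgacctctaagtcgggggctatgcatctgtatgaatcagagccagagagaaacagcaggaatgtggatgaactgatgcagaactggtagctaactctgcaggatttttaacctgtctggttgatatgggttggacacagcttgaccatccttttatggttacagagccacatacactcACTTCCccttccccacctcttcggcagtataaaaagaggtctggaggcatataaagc
ACTTCC or its reverse complement occurs in 23.8% of 32851 RefSeq promoter windows of 300 bases (250 before the start and 50 after). The GATA-type motif AGATAA, searched on both strands, occurs in 11.2% of these windows. Pf4 has it just downstream of its start, in the stretch caggcagtgaAGATAAaacgtgct, while the window of Ppbp does not hold these letters. A match in a window is a description of letters and not a binding site.

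Pf4-positive cells were found on every plate. They made up 12.0% of the cells on HSC plate 1 (6 of 50, exact 95% Clopper-Pearson interval 4.53% to 24.3%), 18.9% on HSC plate 2 (10 of 53) and 19.2% on HSC plate 3 (14 of 73). Their share was 27.5% on MPP1 plate 1 (14 of 51) and 27.1% on MPP1 plate 2 (13 of 48). It was 8.33% on the bled HSC plate (4 of 48, interval 2.32% to 20.0%) and 28.0% on the bled MPP1 plate (14 of 50). The MPP1 plates thus had the 3 highest shares, and their intervals overlapped those of the HSC plates. Such intervals cover counting error only.

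The amount of Pf4 per positive cell spanned more than 3 orders of magnitude, from 1.38 to 6492 FPKM with a median of 113. The median among positive cells was 72.3, 47.1 and 63.9 FPKM on HSC plates 1, 2 and 3, and 229 and 112 on the 2 normal MPP1 plates. It was 6.60 on the bled HSC plate, where only 1 of the 4 positive cells exceeded 10 FPKM, and 131 on the bled MPP1 plate. Of the 7 cells with 1000 FPKM or more, 6 were MPP1 and 1 was an HSC. The cut fell in a sparse part of the range: 297 of the 298 negative cells were listed at exactly 0 and the other one at 0.832, and the lowest positive cells had 1.38, 2.01 and 2.25 FPKM. A value of 0 can also be a failed estimate.

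**Figure D1:**
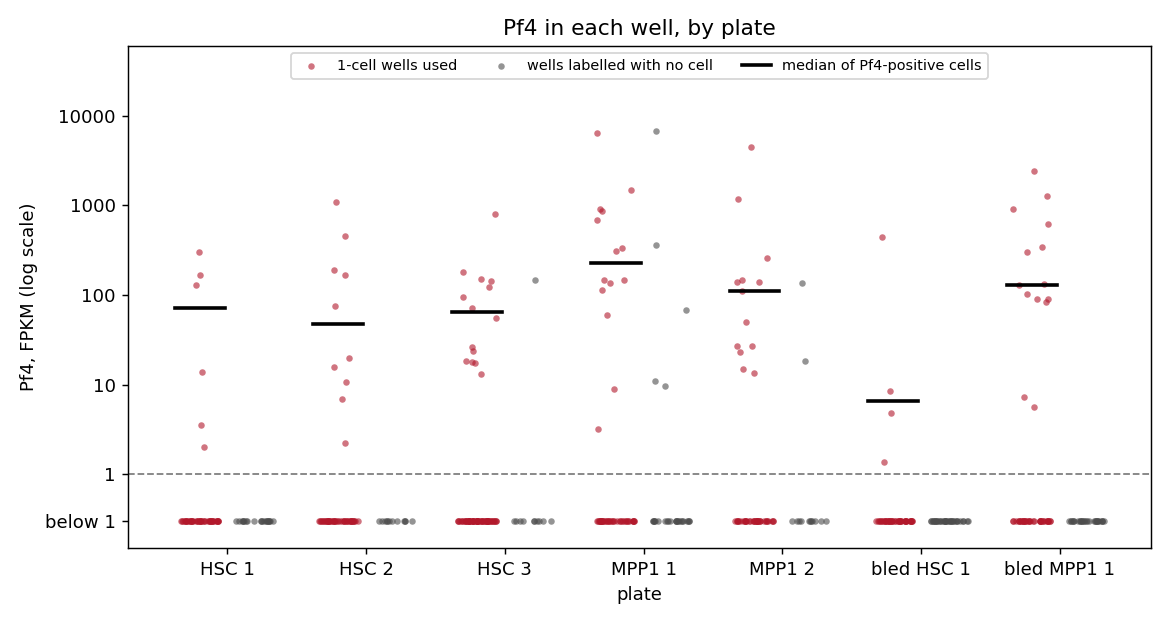
Pf4 in FPKM (log axis) in each well, by plate, for the 1-cell wells used (red) and for wells labelled with no cell (grey); black bars are medians of the Pf4-positive cells and the dashed line is the threshold of 1 FPKM. Positive cells appear on all 7 plates and reach 1000 FPKM on 4 of them, and 8 wells labelled with no cell also carry Pf4.

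Pf4 also appeared in wells labelled with no cell, in 8 of 150 (5.33%, exact interval 2.33% to 10.2%). These wells lay on MPP1 plate 1 (5 of 28), MPP1 plate 2 (2 of 13) and HSC plate 3 (1 of 11). No such well was found on the other 4 plates. The exact interval there reaches up to 16.1% (HSC plate 1), 26.5% (HSC plate 2), 9.74% (bled HSC) and 11.9% (bled MPP1). The highest, 6709 FPKM, was in an MPP1 plate 1 well with 438 genes detected, and 1 MPP1 plate 2 well labelled empty held 4383 genes. In wells labelled with 2 or more cells, Pf4 was present in 21 of 62 (33.9%). Of the 87 wells with 1 cell but fewer than 1000 genes, 2 carried it. The part of free RNA or of miscounted wells in the Pf4 calls was not tested.

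The number of genes detected was compared next, since a cell with more genes detected can show more of any list. The median number of genes at 1 FPKM, with Pf4 itself left out, was 2607 in positive and 2330.5 in negative cells. By plate, the median of the positive cells was higher by 80, 121.5 and 82.5 genes on HSC plates 1, 2 and 3, by 152 and 167 genes on the normal MPP1 plates and by 956 genes on the bled MPP1 plate. On the bled HSC plate the difference was -173.5 genes. The mean difference was 198 ± 353 genes (SD, n = 7 plates), higher on 6 of 7 plates, and the two-sided exact sign-flip test over plates gave p = 0.125, where the smallest value it can give is 0.0156. This did not pass. Without the bled HSC plate, the only one with a negative difference, the mean was 260 genes and the same test gave p = 0.0313. With 1 sign on the remaining 6 plates, the test had to give this smallest value, so it adds no support. Without the bled MPP1 plate the mean difference was 71.6 genes. Because of this difference, comparisons of genes below are at equal numbers of genes detected unless otherwise stated. Plain shares of cells and median FPKM values over pooled cells do not allow for genes detected.

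The comparison of Pf4-positive with Pf4-negative cells asked which other genes go with Pf4 in the earliest precursors. For each plate, log2(FPKM + 1) of a gene was regressed on Pf4 status and on genes detected, and the 7 plate differences were tested with limma. Genes of the platelet signalling group, Plek, Lat and P2rx1, and Gata1 were among those with higher values in Pf4-positive cells, together with Rgs1, Slc25a5, Car2 and the replication gene Mcm2. Ifitm1 had lower values. None of these passed the adjustment over all genes. With limma, 0% of the 9121 genes tested (0 genes) had a Benjamini-Hochberg adjusted p under 0.05. At an unadjusted p under 0.05 there were 558 genes, 281 with higher values (3.08%) and 277 with lower values (3.04%). This split depended on the processing. Without allowance for genes detected it was 737 higher and 74 lower. On the log2 of the mean FPKM per class, also without that allowance, it was 69 higher and 807 lower. Values were higher in Pf4-positive cells on 7 of 7 plates for 56 genes (0.614%) and lower on 7 of 7 for 168 genes (1.84%). By chance alone, some genes with no difference also have 1 sign on all 7 plates. Neither count was tested against that. All values for single genes that follow are therefore descriptions with their error, from 75 cells on 7 plates.

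Among signalling genes of platelets, Plek (pleckstrin, a substrate of protein kinase C) had an FPKM of 1 or more in 27 of 75 Pf4-positive cells (36.0%) and in 45 of 298 Pf4-negative cells (15.1%), against 7.33% of wells labelled with no cell. Over the 7 plates its share among positive cells was lowest at 16.7%, had a median of 28.6% and was highest at 61.5%; among negative cells these were 2.27%, 13.9% and 42.9%. The share was higher in positive cells on 6 plates, MPP1 plate 1 being the exception. At equal genes detected, the log2(FPKM + 1) difference was 1.06 (SE 0.25, limma adjusted p = 0.549) and had the same sign on 7 of 7 plates, from 0.51 (HSC plate 1) to 2.01 (bled MPP1).

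Lat, the adaptor that links the collagen receptor of platelets and the T cell receptor to their downstream enzymes, was present in 33 Pf4-positive cells (44.0%) and 62 Pf4-negative cells (20.8%). Its difference was 1.08 on the log2 scale (SE 0.29, limma adjusted p = 0.763), higher on 6 of 7 plates. P2rx1, an ATP-gated ion channel of platelets, was present in 24 positive (32.0%) and 40 negative cells (13.4%), with a difference of 0.87 (SE 0.26) and higher values on 6 of 7 plates. Both genes were thus about as frequent among Pf4-positive cells as Plek, and each had 1 plate that went the other way, HSC plate 1 for Lat and MPP1 plate 1 for P2rx1.

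The adhesion receptor genes were present in more of the Pf4-positive cells, but their differences were small at equal genes detected. Itga2b (CD41, the integrin chain that marks megakaryocytes) was present in 16 of 75 positive cells (21.3%) and 28 of 298 negative cells (9.40%); its difference was 0.37 (SE 0.20, limma adjusted p = 0.842), higher on 4 of 7 plates. Itgb3, its partner chain, was present in 15 positive cells (20.0%) and 22 negative cells (7.38%). Gp9, a subunit of the von Willebrand factor receptor, was found in 27 positive cells (36.0%) and 57 negative cells (19.1%), with a difference of 0.56 (SE 0.30). The other subunits were rare: Gp1ba in 8 and 14 cells, Gp1bb in 4 and 1, and Gp5 in 6 and 6 of the 75 positive and 298 negative cells. Gp6 was listed below 1 FPKM in every cell, and Clec1b in every Pf4-positive cell.

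The granule genes did not form 1 group. Ppbp, the neighbour of Pf4, was present in only 5 of the 75 Pf4-positive cells (6.67%) and in 7 of the 298 negative cells (2.35%), and was too rare to enter the test. Vwf, which is stored in the same granules and marks a platelet-biased part of the stem cell pool, was present in 12 positive cells (16.0%) and 49 negative cells (16.4%). Its log2 difference was 0.01 (SE 0.22), with plates on both sides: the lowest was -1.15 on the bled HSC plate and the highest 1.01 on MPP1 plate 2. Selp, the adhesion receptor of granule membranes, was found in 9 positive and 15 negative cells, with a difference of 0.04 (SE 0.13).

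**Figure D2:**
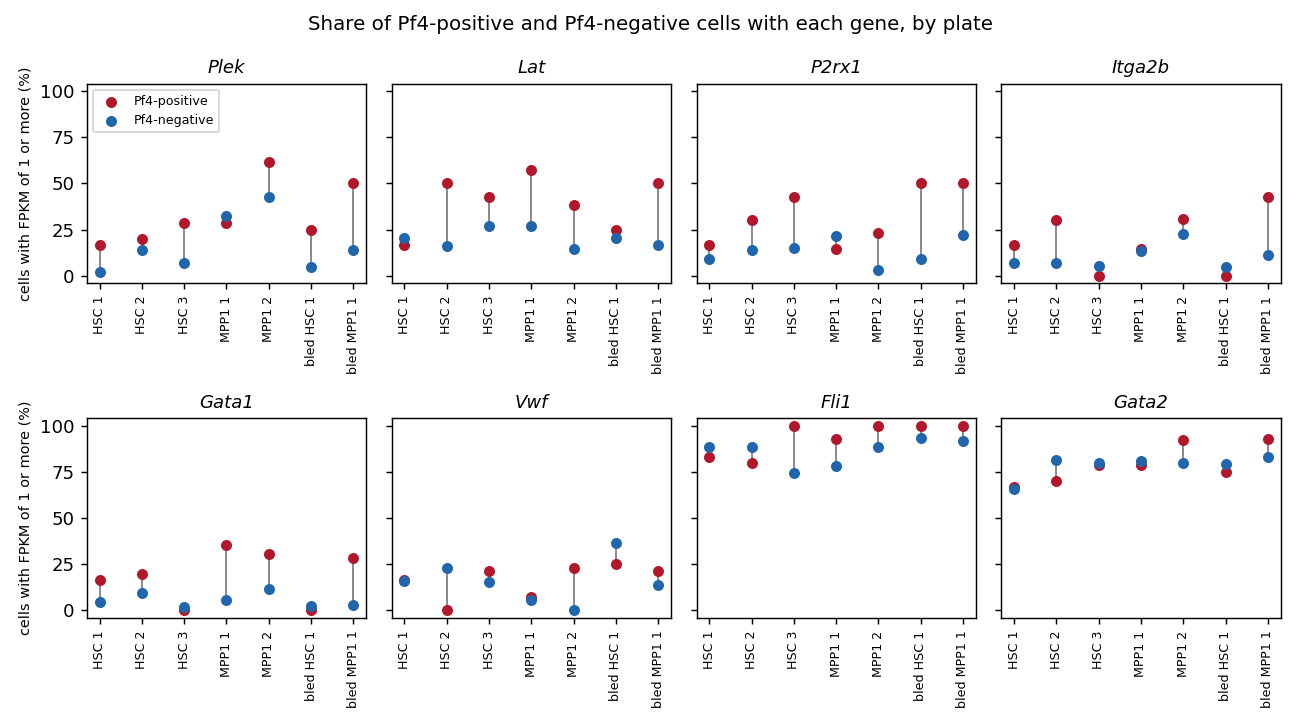
Percent of cells with an FPKM of 1 or more on each plate, in Pf4-positive (red) and Pf4-negative (blue) cells, for 8 genes; each pair of points is 1 plate. Plek, Lat and P2rx1 are more frequent in Pf4-positive cells on 6 of 7 plates, Gata1, Itga2b, Vwf and Fli1 on 5, and Gata2 on 3.

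Of the 42 genes of the platelet list, 24 were frequent enough to test. Higher values were found for 15 and lower for 9, with a median difference of 0.20, beside 4562 higher and 4559 lower and a median of 0.00 over all genes. Unadjusted p under 0.05 with limma was reached by Plek, Lat and P2rx1, all higher. Over all genes tested, 3.08% were higher and 3.04% lower at that level. With so low a share, the absence of a lower gene among 24 says little. The same 2 shares stand beside the counts in the other lists below.

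Most platelet genes were found in few cells, so their joint presence in a cell was counted as well. Of the list, 28 genes besides Pf4 were present in under 25% of all cells, a cut chosen after the data were seen. Over the whole list of 42 genes, the median cell had 8 in the Pf4-positive class and 7 in the Pf4-negative class. At least 5 of the 28 were present together in 23 of 75 Pf4-positive cells (30.7%) and in 16 of 298 Pf4-negative cells (5.37%). At least 10 of the 28 were present in 6 Pf4-positive cells and in 0 Pf4-negative cells. Other genes of like frequency were not counted in this way. The cells with at least 5 had more genes detected in both classes, with medians of 3598 and 3278.5.

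This count was therefore repeated within bands of genes detected. Among cells with 1000 to 2000 genes, 0 of 14 Pf4-positive and 1 of 87 Pf4-negative cells had at least 5 of the 28. Among cells with 2000 to 3000 genes, the numbers were 8 of 41 (19.5%) and 5 of 158 (3.16%). Among cells with 3000 genes or more, they were 15 of 20 (75.0%) and 10 of 53 (18.9%). The Pf4-positive share was the higher one in both upper bands. The bands pool the plates, and genes detected can still differ between the classes within a band. Platelet genes together were a property of a minority of Pf4-positive cells: the median Pf4-positive cell had 2 of the 28 genes, as did the median Pf4-negative cell.

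The same count was made by Pf4 level, as a description, since Pf4 chose the cells. At least 5 of the 28 genes were present in 2 of 11 cells with 1 to 10 FPKM of Pf4, 4 of 24 cells with 10 to 100 FPKM, 11 of 33 cells with 100 to 1000 FPKM and 6 of 7 cells with 1000 FPKM or more. The median number of the 28 genes was 1, 1, 3 and 6 in these bands, and 2 in Pf4-negative cells. The share with at least 5 was 18.2% at 1 to 10 FPKM and 16.7% at 10 to 100 FPKM. Among Pf4-negative cells it was 5.37%. The band of 1000 FPKM or more had a median of 4012 genes detected, against 2688, 2519.5 and 2607 in the lower bands. By plate, such cells numbered 1 of 6, 2 of 10 and 1 of 14 on HSC plates 1, 2 and 3, 2 of 14 and 7 of 13 on MPP1 plates 1 and 2, 1 of 4 on the bled HSC plate and 9 of 14 on the bled MPP1 plate. MPP1 plate 2 and the bled MPP1 plate thus held 16 of the 23. Among Pf4-negative cells the counts were 0 of 44, 2 of 43 and 3 of 59 on HSC plates 1, 2 and 3. They were 3 of 37 and 1 of 35 on MPP1 plates 1 and 2, 4 of 44 on bled HSC and 3 of 36 on bled MPP1. Without MPP1 plate 2 and the bled MPP1 plate the counts were 7 of 48 Pf4-positive cells (14.6%) and 12 of 227 Pf4-negative cells (5.29%).

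The cell with the most was on the bled MPP1 plate. It had 2395 FPKM of Pf4, 264 FPKM of Gata1 and 4508 genes detected, and it carried 16 of the 28 genes: Ppbp, Vwf, Itga2b, Itgb3, Gp1bb, Gp5, Gp9, Selp, Clu, P2rx1, F2rl2, Plek, Sdpr, Alox12, Tgfb1 and Serpine2. The next 2, each with 12 of the 28, were on HSC plate 2 (1102 FPKM of Pf4 and 54.3 of Gata1) and on the bled MPP1 plate (901 FPKM of Pf4 and 29.2 of Gata1). Genes of adhesion receptors, granules and signalling were thus present side by side in these 3 cells.

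**Figure D3:**
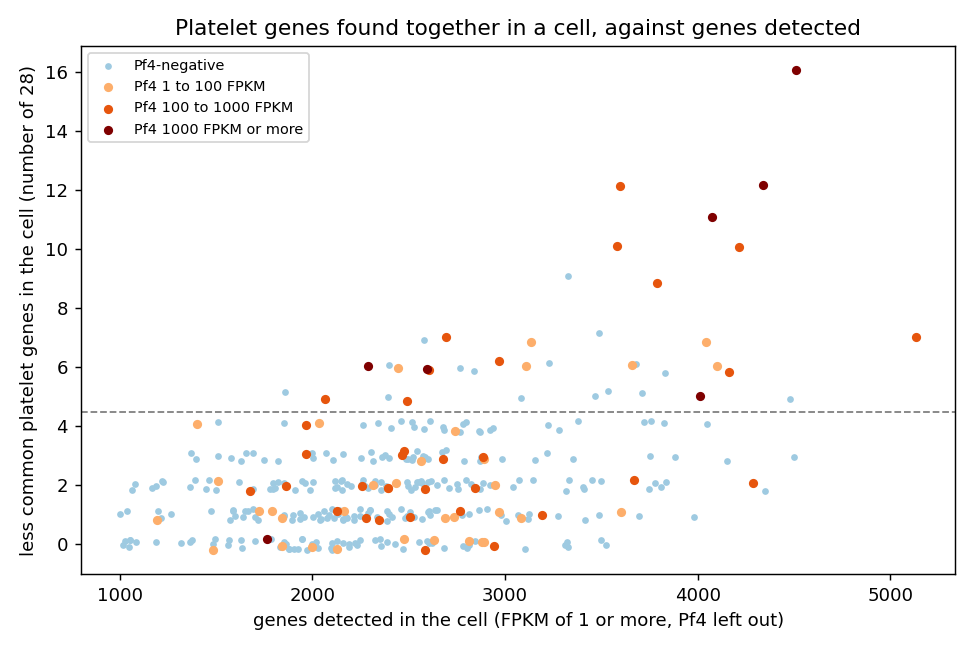
Number of the 28 less common platelet genes with an FPKM of 1 or more in each cell against the number of genes detected in it; points are shifted slightly up or down for visibility, colours give the Pf4 level, and the dashed line separates cells with at least 5. Pf4-positive cells make up 23 of the 39 cells above the line and all 6 cells with at least 10.

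Among the transcription factors, Gata1, which drives erythroid and megakaryocyte genes, differed from the others. It was present in 16 of 75 Pf4-positive cells (21.3%) and in 15 of 298 Pf4-negative cells (5.03%), and in 4.67% of wells labelled with no cell. The log2 difference was 0.91 (SE 0.23, limma adjusted p = 0.763), higher on 5 of 7 plates. The 3 MPP1 plates had the highest values, 1.64, 1.38 and 1.76 on MPP1 plates 1 and 2 and the bled MPP1 plate, and HSC plate 3 and the bled HSC plate were slightly negative at -0.16 and -0.10. In plain shares, 13 of 41 Pf4-positive MPP1 cells (31.7%) carried Gata1 against 7 of 108 Pf4-negative MPP1 cells (6.48%). In HSC the numbers were 3 of 34 (8.82%) and 8 of 190 (4.21%). On HSC plate 3 it was found in 0 of 14 positive cells. Taken as 3 over the number of cells, this allows a share of up to about 21.4%.

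Within the Pf4-positive cells, the 16 with Gata1 had a median of 3627.5 genes detected and the 59 without it 2489. Plek was present in 11 of the 16 and 16 of the 59, Itga2b in 8 and 8, Itgb3 in 7 and 8, and Lat in 11 and 22. P2rx1 showed the opposite order, 3 of 16 and 21 of 59. Procr, a surface receptor of the most quiescent stem cells, was in 0 of the 16 and in 15 of the 59. Taken as 3 over the number of cells, 0 of 16 allows a share of up to about 18.8%. Of the 16 cells with Gata1, 13 were MPP1, against 41 of all 75 Pf4-positive cells. No test was run within the class, and the parts of genes detected and of population in these counts were not tested.

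The other lineage factors showed no common direction. Gata2, a factor of stem and early progenitor cells, was present in 61 Pf4-positive (81.3%) and 234 Pf4-negative cells (78.5%), with a difference of -0.00 (SE 0.39). Fli1, an ETS factor of megakaryocytes, was present in 71 (94.7%) and 255 (85.6%), with a difference of 0.36 (SE 0.33). Both had plates on either side. Gfi1b was present in 32 (42.7%) and 81 (27.2%), with a difference of 0.50 (SE 0.37). Of the 19 factors tested of 20 listed, 9 were higher and 10 lower, with a median of -0.00 (0.14 without allowance for genes detected), and Gata1 was the only one with an unadjusted p under 0.05.

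Outside the platelet genes, the largest of the 10 named higher differences was that of Rgs1, a regulator that shortens G protein signalling downstream of chemokine receptors. It was present in 66 of 75 Pf4-positive cells (88.0%) and 184 of 298 Pf4-negative cells (61.7%). The difference was 1.83 (SE 0.36, limma adjusted p = 0.174), between 0.49 on MPP1 plate 2 and 3.33 on HSC plate 1. In HSC it was present in 27 of 34 positive (79.4%) and 94 of 190 negative cells (49.5%), and in MPP1 in 39 of 41 (95.1%) and 90 of 108 (83.3%). Wells labelled with no cell held it in 36.0%.

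Slc25a5, the ADP/ATP carrier of the mitochondrial inner membrane, was present in all 75 Pf4-positive cells and in 263 Pf4-negative cells (88.3%). Its plate differences ran from 0.38 to 1.59, with a mean of 0.98 (SE 0.20, limma adjusted p = 0.174). It passed the adjustment when genes detected were not allowed for (adjusted p = 0.0134) and when presence or absence was tested (0.0114). Car2, a carbonic anhydrase of erythroid cells, was also present in all 75 and in 285 negative cells (95.6%), with a difference of 0.68 (SE 0.16) that was higher on 6 of 7 plates. Without allowance for genes detected its limma adjusted p was 0.0399. Wells labelled with no cell held Slc25a5 in 51.3% and Car2 in 66.0%.

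The other 7 genes named for higher values on every plate had differences between 0.63 and 1.39. They were Polr1d (a subunit of RNA polymerases I and III, 1.39), Apex1 (a DNA repair endonuclease), Cdc42se1 (an effector of the small GTPase Cdc42, 1.03), Mcm2 (a subunit of the replicative helicase, 1.01), Fahd1, Cc2d1b and Map3k7 (the kinase TAK1, 0.63). Mcm2 was present in 37 Pf4-positive (49.3%) and 73 Pf4-negative cells (24.5%). For Cc2d1b the counts were 23 (30.7%) and 30 (10.1%), and for Map3k7 22 (29.3%) and 32 (10.7%).

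Among genes with lower values, Ifitm1, an interferon-inducible membrane protein that is abundant in stem cells, had the smallest p. It was present in most cells of both classes, 67 (89.3%) and 278 (93.3%). With all plates pooled, the median FPKM where present was 292 in Pf4-positive and 548 in Pf4-negative cells. These medians also hold the mix of populations, since 41 of 75 positive and 108 of 298 negative cells were MPP1. Among Pf4-negative cells, plate means of log2(FPKM + 1) were 5.75 to 8.07 on MPP1 plates and 7.87 to 10.0 on HSC plates. The log2 difference was -1.06 (SE 0.20, limma adjusted p = 0.174), lower on 6 of 7 plates, and -1.57, -1.53 and -1.38 on MPP1 plates 1 and 2 and the bled MPP1 plate. The bled HSC plate, with 4 positive cells, was at 0.07.

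The 10 genes named for lower values on every plate had differences between -1.16 and -0.56. They were Snx10 (a sorting nexin of endosomes, -1.16), Ptk2b (the focal adhesion kinase PYK2, -1.10), Hars (histidyl-tRNA synthetase, -1.09), Zfp608, Tax1bp3, Tacc3 (a spindle protein), Pim2 (a survival kinase), Rnf214, Rpp38 (a subunit of RNase P) and Gpx7. Zfp608 was present in 21 Pf4-positive (28.0%) and 147 Pf4-negative cells (49.3%), and Ptk2b in 34 (45.3%) and 163 (54.7%). Rpp38 was present in 2 (2.67%) and 41 (13.8%), and Tax1bp3 in 3 (4.00%) and 48 (16.1%). A gene absent from most cells could have lower values on every plate with few transcripts behind it.

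**Figure D4:**
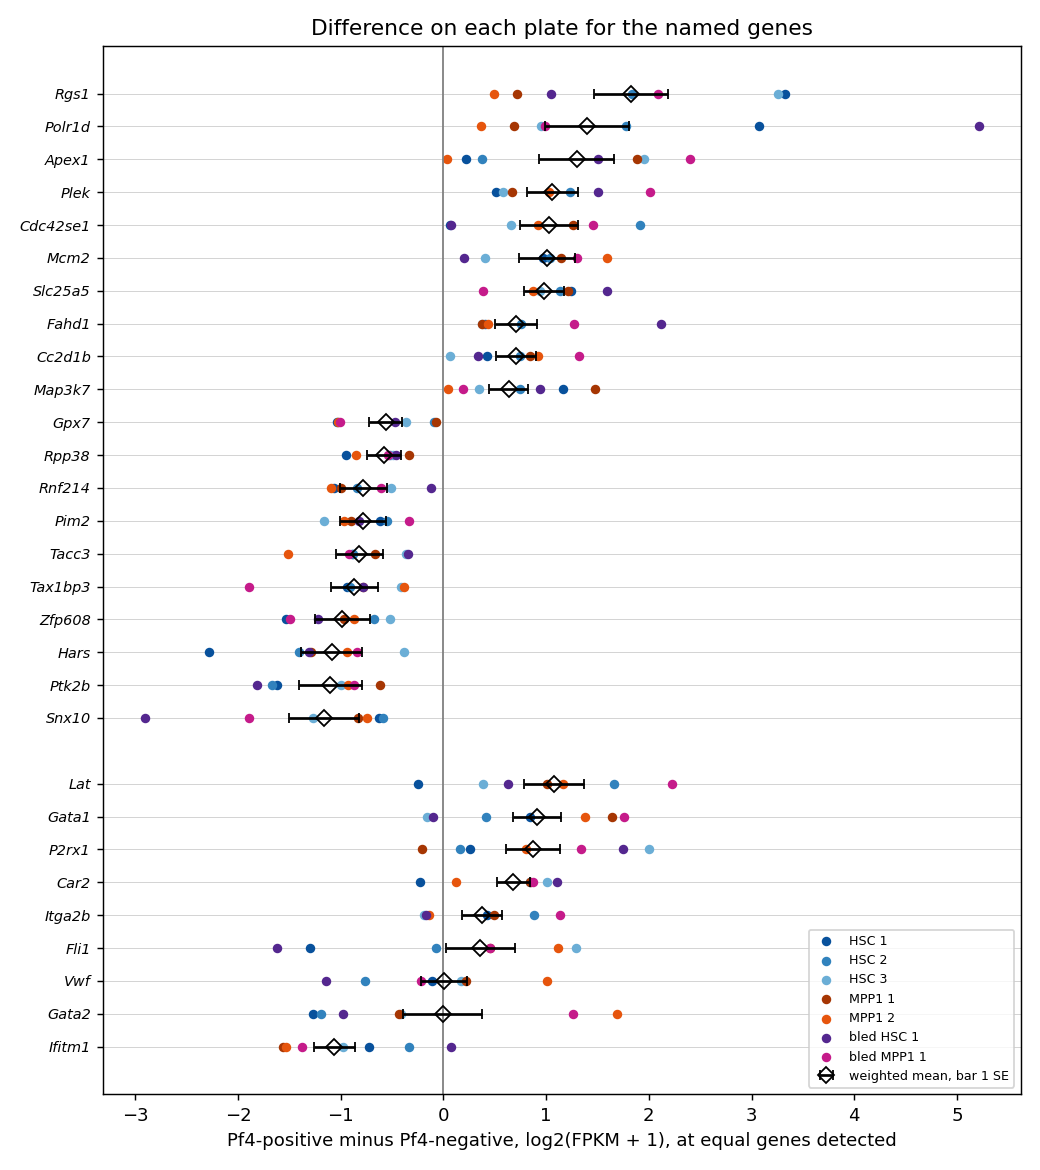
Difference in log2(FPKM + 1) between Pf4-positive and Pf4-negative cells at equal genes detected, for each of 7 plates (points) with the weighted mean and 1 SE (diamonds and bars). The upper 20 genes were named for 1 sign on every plate, so their points lie on 1 side of 0 by choice; the lower 9 show Gata1 highest on the 3 MPP1 plates and Vwf and Gata2 on both sides of 0.

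Cell cycle genes gave different pictures by plain share and at equal genes detected. At least 3 genes of the G2/M list were present in 40 of 75 positive cells (53.3%) and 91 of 298 negative cells (30.5%), higher on 5 of 7 plates, and the median number of genes detected in these cells was 2919 and 2884. At equal genes detected, 16 of 23 S phase genes had higher values and 7 lower, with a median of 0.20. Those with an unadjusted p under 0.05 were Mcm2, Mcm7 (0.71, SE 0.29), Rfc2 (0.98, SE 0.44) and, named after its value was seen, Dut, all higher. Of 28 G2/M genes, 9 were higher and 19 lower with a median of -0.10, and those under 0.05 were Ttk (-0.41) and Ube2c (-0.47), both lower. Over all genes tested, 3.08% were higher and 3.04% lower at that level. Without allowance for genes detected the median of the G2/M list was 0.22 and that of the S phase list 0.54, beside 0.12 over all genes.

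The erythroid list had 6 testable genes, 5 higher and 1 lower with a median of 0.21, and Car2 alone was under 0.05. Klf1, the erythroid master regulator, was present in 1 Pf4-positive and 2 Pf4-negative cells. Alas2 and Slc4a1 were below 1 FPKM in every Pf4-positive cell. Epor, the erythropoietin receptor, was present in 11 (14.7%) and 13 (4.36%). Of 7 granulocyte-monocyte genes 1 was higher and 6 were lower (median -0.26), as were 1 and 6 of 7 lymphoid genes (median -0.02, or 0.02 without that allowance), none under 0.05. Mpo and Elane, and Il7r and Dntt, were below 1 FPKM in every Pf4-positive cell.

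Of 34 genes of the stem cell program, 13 had higher and 21 lower values, with a median of -0.08, or 0.01 without allowance for genes detected. Under 0.05 were Ctla2a (0.84, SE 0.35), higher, and Trim47 (-0.49, SE 0.20), Ifitm1 and, named after its value was seen, Hlf, all lower. Procr was present in 15 Pf4-positive (20.0%) and 92 Pf4-negative cells (30.9%). Csf3r was present in 18 (24.0%) and 54 (18.1%), and Cd74 in 18 (24.0%) and 66 (22.1%).

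Of 19 immediate early genes, 13 were higher and 6 lower (median 0.10). Btg2, which restrains proliferation, was higher on 7 of 7 plates with a difference of 1.08 (SE 0.34). Atf3 (0.77, SE 0.33) and, named after its value was seen, Ier2 were higher too, and Nr4a2 was at -1.14 (SE 0.32), all with an unadjusted p under 0.05. The interferon list had 13 higher and 5 lower of 18 (median 0.17), with Ifit1 under 0.05 at 0.72 (SE 0.33). Of 22 ribosomal protein genes 13 were higher (median 0.03, or 0.27 without allowance for genes detected), with Rpl8 at 0.46 (SE 0.15). Of 22 genes of oxidative phosphorylation 12 were higher (median 0.08, or 0.54 without that allowance), with Sdhb at 0.79 and Ndufb9 at -0.77 under 0.05. Of 15 housekeeping genes 7 were higher and 8 lower (median -0.05, or 0.24 without allowance for genes detected), with B2m at -0.26 (SE 0.08).

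Markers of mature cell types were examined next. Of 18 macrophage markers, 13 were below 1 FPKM in every Pf4-positive cell, including C1qa, C1qb, C1qc, Csf1r, Vcam1 and Timd4, and the summed level averaged between 0.00 and 15.3 FPKM per plate in positive and between 0.238 and 20.8 in negative cells. Of 10 neutrophil markers 8 were absent (Ngp, Ltf, Camp, Lcn2 and others), with sums of 0.00 to 30.9 and 0.00 to 18.4 FPKM. Of 13 mast cell and basophil markers 10 were absent, with sums of 0.00 to 7.30 and 0.00 to 6.73 FPKM. Of 11 B and plasma cell markers 6 were absent, Cd79a among them, with sums of 95.6 to 1174 and 71.7 to 472 FPKM. Of 12 T and NK cell markers 6 were absent, Cd3e and Cd3g among them, with sums of 25.7 to 218 and 24.0 to 169 FPKM. Of 14 endothelial and stromal markers 6 were absent, Cdh5 and Kdr among them, with sums of 3.23 to 68.6 and 16.7 to 115 FPKM. Among the tested genes of these lists, Lat was the one with an unadjusted p under 0.05. It stands in the T and NK list and in the platelet list. The other tested gene of the T and NK list, Nkg7, was higher as well (0.49, SE 0.40), on 4 of 7 plates. In all, 6 genes of that list, Lat included, were present in Pf4-positive cells.

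Of these lists, the sums of 4 reached higher values in Pf4-positive than in negative cells. They were the B and plasma cell, T and NK, neutrophil, and mast cell and basophil lists. The sums of the macrophage and the endothelial and stromal lists reached higher values in negative cells. So did those of the platelet list, with 632 to 1084 FPKM in positive and 594 to 1686 in negative cells. Cd79b, a signalling chain of the B cell receptor, was present in 21 Pf4-positive (28.0%) and 82 Pf4-negative cells, with a median of 153 and 52.0 FPKM where present; it is named after its values were seen. The part of markers of mature cell types in the results was not tested. Of the chemokine list, 1 gene of 15 was testable, with a difference of -0.09.

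Whether the Pf4 difference itself differed between MPP1 and HSC was tested over the same plates, with bleeding as a covariate. With limma 0 of 9121 genes (0%) passed an adjusted p of 0.05, and 487 had an unadjusted p under 0.05. Gata1 had a difference between populations of 1.38 (SE 0.38, limma adjusted p = 0.873): 1.60 in a fit of the MPP1 plates alone and 0.20 in one of the HSC plates alone. For Ifitm1 the same fits gave -1.49 and -0.61, and for Rgs1 1.11 and 2.58. Plek was at 1.24 in MPP1 and 0.87 in HSC, and Slc25a5 at 0.82 and 1.14. These genes differed between populations by -0.96, -1.56, 0.15 and -0.25 in that order (SE 0.36, 0.69, 0.48 and 0.40), and none passed.

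Between bled and normal mice, 0 of 9121 genes (0%) passed for a difference of the Pf4 effect, and 557 had an unadjusted p under 0.05. Each bled group was 1 plate, so that bleeding, plate and table cannot be told apart. Plek was 1.02 higher in the bled plates (SE 0.56, limma adjusted p = 0.825) and Gata1 0.05 higher (SE 0.44). The bled MPP1 plate had the most cells with platelet genes together, 9 of 14, and its Pf4-positive cells also had a median of 3728.5 genes detected against 2772.5 in its Pf4-negative cells.

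The bulk populations of the series, 1 library each, show where these genes are abundant further along; in such samples fewer cells of a type and less RNA per cell cannot be told apart. Pf4 in bulk was not analysed here. Plek had 14.1 FPKM in bulk HSC, 15.2 in MPP1 and 122 in MKP, the megakaryocyte-committed progenitors, its highest value among 18 populations. Itga2b was also highest in MKP, with 70.5 FPKM against 16.2 in HSC and 5.36 in MPP1, as was Vwf with 52.0 against 13.9 and 1.19. Gata1 stood at 0.539 FPKM in HSC, 20.2 in MPP1, 44.8 in preMegE (the progenitors of both lineages) and 34.2 in MKP, and was highest in CFU-E, colony-forming erythroid cells, with 84.7. P2rx1 was highest in mature megakaryocytes, with 41.6 FPKM. Of 33 platelet list genes that reached 1 FPKM in any bulk library, 15 were highest in MKP (45.5%), 3 in mature megakaryocytes (9.09%), and 28 were higher in MKP than in HSC (84.8%). Over all 9685 bulk genes that reached 1 FPKM these shares were 5.51%, 3.30% and 58.2%. Ifitm1 was lower in MKP, with 37.0 FPKM in HSC, 202 in MPP1 and 0.250 in MKP. Single Pf4-negative cells did not show its rise from HSC to MPP1. Their plate means of log2(FPKM + 1) were 7.87 to 10.0 in HSC and 5.75 to 8.07 in MPP1. Rgs1 was at or below 2.76 FPKM in all 18 bulk libraries, yet was present in 94 of 190 single Pf4-negative HSC. For these 2 genes bulk and single-cell levels thus differed in the same populations, and the reason was not tested.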

How the data were processed

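The authors deposited FPKM values per gene and well; the submitters' processing notes list TopHat 1.3.3, Cufflinks 1.2.1 and mm9, and for HSC plate 3 also Bowtie2 2.2.1. Read depth is unknown, and the plate was the replicate. Per plate and gene, log2(FPKM + 1) was regressed on Pf4 status and genes detected, in genes present in at least 5% of cells. Plate differences, weighted by the cells of both classes, were tested with limma 3.58.1 (R 4.3.3, trend, Benjamini-Hochberg, 0.05) after a test on simulated data. P-values measure the spread between plates. The scale understates changes of low genes.

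Members and lists were chosen with earlier results of these data known. Named were up to 10 genes per direction with 1 sign on every plate, platelet and transcription factor genes with an unadjusted p under 0.05, 7 fixed genes, and up to 3 per other list, of which those under 0.05 are printed; 1 fixed gene is not reported here. Doublets were treated through the labelled cell counts. Alternatives changed covariate, pseudocount, filters, weights, threshold and plates.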

Additional observations from a re-analysis of the deposited data

Results flagged for a closer look

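The difference in median genes detected between Pf4-positive and Pf4-negative cells was 956 on the bled MPP1 plate, far from the next highest plate, MPP1 plate 2, at 167 genes.

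Ifit1, an interferon-induced gene, differed by 4.02 on HSC plate 1, which had 6 Pf4-positive cells, and by at most 1.45 on the others. Tax1bp3 differed by -1.89 on the bled MPP1 plate, and its next lowest plate was at -0.94. About 1 in 20 groups is singled out in this way by chance, and 45 were looked at.

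Pf4 was present in 17.9% of the wells labelled with no cell on MPP1 plate 1 (5 of 28, exact 95% interval 6.06% to 36.9%), which lie outside the comparison of cells. The number of genes detected in these 5 wells ran from 438 to 1414, and their Pf4 from 9.73 to 6709 FPKM.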

How the results depend on the processing

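Without allowance for genes detected, 2 genes passed (Car2 and Slc25a5), all genes shifted by a median of 0.12, and 737 genes were higher and 74 lower at an unadjusted p under 0.05. Restricting the test to genes in at least 20% of cells gave 2 genes (Rgs1 and Ifitm1), and testing presence or absence gave 1 (Slc25a5). In every other alternative run for this comparison 0 genes passed. The log2 of mean FPKM per class, also without allowance for genes detected, moved the median of all genes to -0.29. The difference between bled and normal plates gave 4 genes without the bled MPP1 plate (Ndufa4, Pfkfb4, Mtus1 and Rbbp9, named after their values were seen), and leaving out any 1 plate otherwise gave 0.

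For the difference between populations 0 genes passed in each alternative run, including the replicate block over plates 1 and 2 of HSC and MPP1 (0 genes). The labels share only the plate numbers, and the deviations of same-numbered plates correlated across the 9121 genes at r = 0.0086. Without the replicate block by plate, 0 genes passed between the classes. That fit did not allow for genes detected either.

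The mean difference in genes detected was 252 when means replaced medians, with an exact sign-flip p of 0.0313 over 7 plates. At a Pf4 threshold of 10 FPKM it was 272 over 6 plates, because the bled HSC plate had only 1 such cell and dropped out. The exact sign-flip p of 0.0313 there is the smallest value possible for 6 plates. Leaving out 1 plate gave mean differences of 71.6 to 260.

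The mean difference of each of the 20 genes named for 1 sign on every plate kept its direction in all alternatives. In the alternatives that only left out or reweighted plates, this was fixed, because the genes were chosen for 1 sign on every plate. The sign on single plates was not followed in the alternatives. Values near 0 changed sign. Gata2 went to 0.15 without the covariate, 0.00080 with log2 of genes detected, 0.17 at a Pf4 threshold of 10 FPKM, 0.39 in cells with at least 2000 genes, 0.28 without the replicate block and 0.82 in MPP1 plates only. Vwf went to -0.015 with a pseudocount of 0.1, -0.030 in cells with at least 2000 genes, -0.12 with equal plate weights, -0.011 for presence, -0.017 without the replicate block and -0.32 in HSC plates only. Leaving out 1 plate gave -0.33 to 0.19 for Gata2 and -0.19 to 0.13 for Vwf. Rpl8 went to -0.0062 for presence and Ube2c to 0.090 without the replicate block. Depth limits what rests on 4 to 14 Pf4-positive cells per plate.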
